A study of Mus musculus with 28 samples.

Results

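Genes for the receptor chains of interleukin 4 (IL-4) and interferon gamma (IFN-γ) were followed in mouse bone marrow-derived macrophages. The 5 genes, Il4ra, Il2rg, Il13ra1, Ifngr1 and Ifngr2, were taken by name from 27670 gene names on a 1-colour Agilent expression array, and the brightest probe stood for each gene. All 5 were among the 22452 genes tested. In 28 arrays, total RNA was measured from cells given IL-4 at 10 ng/ml for 18 h (4 arrays), IFN-γ at 100 U/ml for 18 h (3 arrays), lipopolysaccharide (LPS, a bacterial cell wall component sensed through TLR4) at 10 ng/ml for 4 h (7 arrays), IL-4 for 18 h with LPS in the last 4 h (4 arrays), IFN-γ for 18 h with LPS in the last 4 h (3 arrays), or no stimulus (7 arrays). All groups came from C57BL6/J mice aged 8 to 12 weeks, 2 males and 1 female, whose marrow was pooled. All cells, untreated ones included, were grown in 200 ng/ml human CSF1, the growth factor that turns marrow cells into macrophages, and stimulation began on day 7. Arrays are named here by the experiment letters of the labels, which call the experiments independent.

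IL-4 binds the alpha chain encoded by Il4ra, which then recruits a second chain. With the common gamma chain, encoded by Il2rg, it forms the type I receptor, which binds IL-4 only and is typical of blood cells. With the chain encoded by Il13ra1 it forms the type II receptor, which binds both IL-4 and IL-13 and is also found on macrophages. IFN-γ binds the ligand-binding chain encoded by Ifngr1, and the chain encoded by Ifngr2 completes the signalling receptor. The chains have no enzyme of their own and signal through bound Janus kinases, which phosphorylate STAT transcription factors, STAT6 at the IL-4 receptors.

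The bases just before the start sites are shown for the members with the largest differences between treatments, Il4ra and Il13ra1, and for Ifngr2, which held the motif matches described here. RefSeq promoter windows were found for all 5 genes on build GRCm38.p6. Each run gives the 250 bases before the annotated start, 5′ to 3′ on the gene's strand, and capitals mark motif matches.
Il4ra, chr7:125552021-125552270, plus strand: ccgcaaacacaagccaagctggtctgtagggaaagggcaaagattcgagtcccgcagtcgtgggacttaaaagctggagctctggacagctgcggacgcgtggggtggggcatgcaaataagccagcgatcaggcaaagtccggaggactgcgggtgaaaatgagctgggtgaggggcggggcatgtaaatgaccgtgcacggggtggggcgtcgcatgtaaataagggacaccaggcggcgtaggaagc
Il13ra1, chrX:36111858-36112107, plus strand: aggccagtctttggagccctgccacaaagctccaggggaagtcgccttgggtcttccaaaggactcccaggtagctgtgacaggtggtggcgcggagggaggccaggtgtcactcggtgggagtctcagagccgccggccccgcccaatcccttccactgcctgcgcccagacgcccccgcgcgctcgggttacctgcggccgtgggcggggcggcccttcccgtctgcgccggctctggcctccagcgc
Ifngr2, chr16:91546809-91547058, plus strand: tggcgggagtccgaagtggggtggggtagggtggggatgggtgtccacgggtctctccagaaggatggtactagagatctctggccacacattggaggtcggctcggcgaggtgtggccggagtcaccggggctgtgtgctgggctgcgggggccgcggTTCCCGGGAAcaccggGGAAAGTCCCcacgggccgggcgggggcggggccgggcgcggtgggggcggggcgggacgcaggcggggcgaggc
Both strands of 32851 such windows were searched for motifs, of which 3 are given. The spacing preferred by STAT6, TTC and GAA with 4 bases between them, was in 5.85% of windows. The interferon response element core, GAAA and GAAA with 2 bases between them, was in 2.98%, and the κB motif of NF-κB in 7.25%. In the Ifngr2 window the STAT6-type motif lay 91 to 82 bases before the start and a κB motif lay 75 to 66 bases before it, with no overlap between them. The windows of Il4ra, Il2rg, Il13ra1 and Ifngr1 held none of these 3 motifs, which describes these windows alone.

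Values are log2 signals minus the array's 75th percentile of log2 signal, called scaled log2 signal, so 1 unit is a doubling. They are compared between groups for 1 probe at a time, because the brightness of different probes is not comparable. The 75th percentile lay between 540 and 2004 intensity units, and 60.0% to 78.6% of gene probes were well above background on an array. The member probes were well above background on all 28 arrays, and none was saturated or flagged as an outlier. The labelled treatments showed in marker genes: Retnla, a hallmark of IL-4-treated macrophages, was above background on 8 of 28 arrays and averaged 7.80 in IL-4 and 7.92 in IL-4+LPS arrays, and Cxcl9, an IFN-γ-induced chemokine, averaged 7.24 in IFN-γ arrays and -3.24 in untreated arrays. All 10 macrophage markers were above background on all arrays. The arrays were spread over 10 slides and 5 scan days. Each scan day held at least 2 groups, so differences are also given within scan days. The letters of the LPS and untreated arrays did not follow the slides and scan days of the other groups' letters. Untreated array G correlated least with its own group (mean Pearson r of 0.956), and IFN-γ array G lay apart from arrays E and F for Il2rg and Ifngr1. Both stayed in the tests, and values without single arrays, or without the arrays of scan day 5, which held IFN-γ array G, are given where they change a result. The number of arrays, 3 in the IFN-γ groups, limits the precision.

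The receptor chains differed in which treatments moved them. After LPS alone, Il4ra and Il13ra1 were about 12-fold higher than in untreated cells and Il2rg and Ifngr2 more than 2-fold higher. IFN-γ alone raised the same 4 genes, most of all Il13ra1. IL-4 alone lowered Il13ra1 and Il2rg. The calls of Il4ra and Ifngr2 with IFN-γ and of Il2rg with IL-4 were lost under some settings. Ifngr1 did not pass the test in any of the 11 comparisons of the main fit. Other settings called it in some of them, among them IL-4+LPS against IL-4 cells. Tests were made with limma over all 28 arrays, and p-values were adjusted (Benjamini-Hochberg) over all genes of a comparison, with calls at an adjusted p under 0.05.

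**Figure D1:**
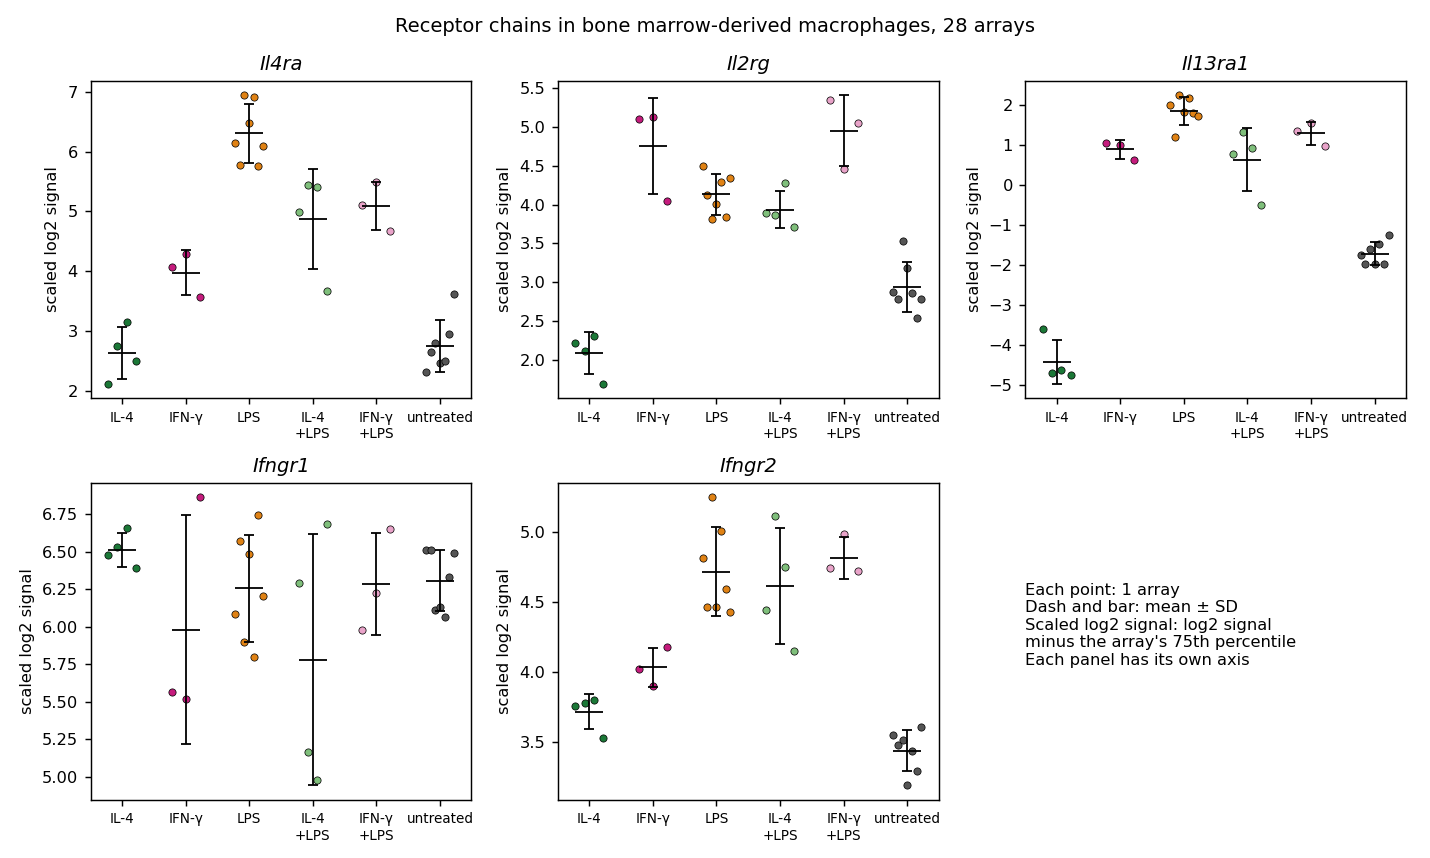
Scaled log2 signal (y axis) of the 5 receptor genes in the 6 groups (x axis), 1 point per array, with the mean and SD as a dash and bar. By group mean, Il4ra and Il13ra1 were highest in the LPS arrays and Il2rg in the IFN-γ+LPS and IFN-γ arrays. For Il13ra1 and Il2rg, single arrays of these highest groups overlapped other groups. Il13ra1 was lowest in the IL-4 arrays, while the Ifngr1 groups overlapped.

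In LPS against untreated cells 4 of 5 members were called, all higher, against 42.7% of all genes called and 22% called higher. In IFN-γ against untreated cells 4 members were called, all higher, against 25.7% of all genes called and 13% called higher. In IL-4 against untreated cells 2 members were called, both lower, against 11.3% of all genes called and 5.5% called lower. In these comparisons 4, 3 and 2 members had groups that did not overlap, in the same order, where 25.4%, 24.7% and 12.7% of all genes had none. The median log2 difference over all genes was 0.09 for LPS, -0.27 for IFN-γ and 0.01 for IL-4. With the array median in place of the 75th percentile the IFN-γ value was 0.16, so IFN-γ differences depend on the scaling by that amount.

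**Figure D2:**
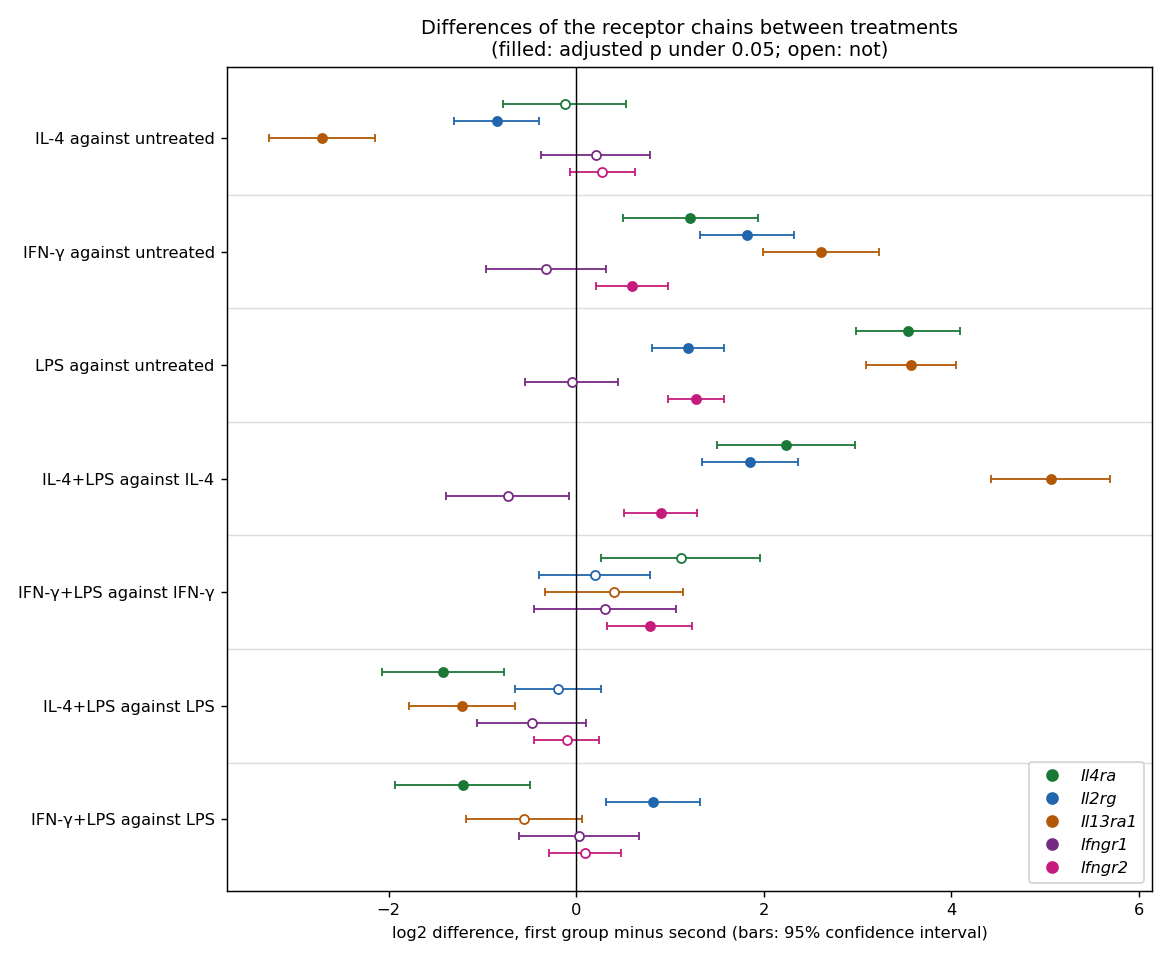
Log2 difference (x axis), first group minus second, of the 5 receptor genes in 7 comparisons (rows), with the 95% confidence interval of the fit as a bar. Filled points passed the test; Il13ra1 lay at -2.71 for IL-4 against untreated cells and at 3.57 for LPS against untreated cells.

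Il4ra, the chain shared by both IL-4 receptors, was raised by LPS and IFN-γ and not measurably by IL-4. Its scaled log2 signal in LPS arrays was 5.76 at the lowest, 6.15 at the median and 6.94 at the highest, against 2.32, 2.65 and 3.62 in untreated arrays. All 7 LPS arrays were above all 7 untreated arrays. The difference was 3.54 ± 0.27 (SE), 11.6-fold with a 95% interval of 7.90 to 17.1 (adjusted p = 4.86e-11). Within the 5 scan days the difference lay between 2.82 and 4.22.

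In IFN-γ arrays Il4ra had 4.07, 4.29 and 3.57 in experiments E, F and G, against the untreated range of 2.32 to 3.62. Array G fell just below the highest untreated array, which was untreated array G, while E and F lay above all untreated arrays. The difference was 1.22 ± 0.35, 2.32-fold (adjusted p = 0.0109), and 0.61 and 1.54 in the 2 scan days that held both groups. Adjusted p was 0.052 without IFN-γ array E, 0.071 without array F 0.0502 with normexp background correction and 0.135 with only the experiments that both groups shared. In IL-4 arrays Il4ra had 2.13, 2.76, 3.16 and 2.51 in experiments A, B, C and G, within the untreated range apart from array A. The difference was -0.12 ± 0.32, with a 95% interval of -0.78 to 0.53 (adjusted p = 0.882).

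Il2rg, the common gamma chain, was raised by IFN-γ and LPS and lowered by IL-4, the same directions as Il13ra1. It had 5.11, 5.12 and 4.04 in IFN-γ arrays E, F and G, against 2.54, 2.87 and 3.53 at the lowest, median and highest of the untreated arrays. All 3 IFN-γ arrays were above all untreated arrays, and array G was more than 1 unit below the other two. The difference was 1.82 ± 0.24, 3.53-fold with a 95% interval of 2.50 to 4.99 (adjusted p = 2.88e-06), and lay between 1.5 and 1.76 within scan days.

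In IL-4 arrays Il2rg had 2.23, 2.12, 2.31 and 1.70, and all 4 were below all untreated arrays. The difference was -0.85 ± 0.22, 0.555 of the untreated level (adjusted p = 0.0103), and lay between -0.84 and -0.48 within the 3 scan days that held both groups. The call was lost without IL-4 array G (adjusted p = 0.0633), with median scaling (0.124), with normexp background correction (0.113) and with only shared experiments (0.0607). In LPS arrays Il2rg had 3.82, 4.12 and 4.50 at the lowest, median and highest, again above all untreated arrays. That difference was 1.19 ± 0.19, 2.29-fold (adjusted p = 8.23e-06), and lay between 0.98 and 1.58 within the 5 scan days, but was 0.70 with quantile normalization.

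Il13ra1, the chain that completes the type II receptor, had the widest range of the 5 members. In IL-4 arrays it had -3.60, -4.69, -4.63 and -4.76 in experiments A, B, C and G, against -1.97, -1.75 and -1.24 at the lowest, median and highest of the untreated arrays. The 4 IL-4 arrays were all lower, with array A the least low. The difference was -2.71 ± 0.27, 0.153 of the untreated level with a 95% interval of 0.103 to 0.226 (adjusted p = 8.73e-08). Within the 3 scan days it lay between -3.39 and -2.28. Among 22452 genes 79 had a more negative difference. The probe's intensity on IL-4 arrays was 26.4 to 117 units, and normexp background correction with an offset of 50 units gave a difference of -1.14 (adjusted p = 0.0398).

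In IFN-γ arrays Il13ra1 had 1.06, 1.00 and 0.63, all above the highest untreated array. The difference was 2.61 ± 0.30, 6.10-fold with a 95% interval of 3.96 to 9.38 (adjusted p = 3.41e-07), and was 2.59 and 2.81 in the 2 scan days. In LPS arrays it had 1.21, 1.84 and 2.25 at the lowest, median and highest, again with no overlap with untreated arrays. That difference was 3.57 ± 0.23, 11.9-fold with a 95% interval of 8.52 to 16.6 (adjusted p = 2.87e-12), and lay between 3.18 and 3.91 within the 5 scan days. Directly compared, IL-4 arrays were 5.32 ± 0.33 lower than IFN-γ arrays (log2 difference -5.32, adjusted p = 5.55e-12), which is 0.0251 of the IFN-γ level. The size of that difference depended on the background and the probe. It was -3.40 with normexp background correction and -4.21 at another, dimmer probe of the gene.

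Ifngr1, the ligand-binding chain of the IFN-γ receptor, did not pass the test against untreated cells with any of the 3 agents. Its scaled log2 signal was 6.48, 6.53, 6.66 and 6.39 in IL-4 arrays, 5.56, 5.52 and 6.86 in IFN-γ arrays, and 5.80, 6.21 and 6.75 at the lowest, median and highest of LPS arrays, against 6.06, 6.33 and 6.51 in untreated arrays. IFN-γ array G was the highest of all 28 arrays, while arrays E and F were below every untreated array. The differences from untreated cells were 0.21 ± 0.28 for IL-4, -0.33 ± 0.31 for IFN-γ and -0.05 ± 0.24 for LPS (adjusted p of 0.758, 0.452 and 0.904). Their 95% intervals ran from -0.38 to 0.79, from -0.97 to 0.31 and from -0.55 to 0.45. Within scan days the sign was mixed, with -0.58 and 0.53 for IFN-γ and values from -0.69 to 0.68 for LPS. Quantile normalization called Ifngr1 lower after LPS (-0.85, adjusted p = 0.00182) and after IFN-γ (-0.86, adjusted p = 0.0232), and median scaling gave 0.11 for IFN-γ.

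Ifngr2, the second chain of the IFN-γ receptor, rose with LPS. It had 4.43, 4.60 and 5.25 at the lowest, median and highest of LPS arrays, against 3.19, 3.48 and 3.60 in untreated arrays, with no overlap. The difference was 1.28 ± 0.14, 2.43-fold with a 95% interval of 1.98 to 2.99 (adjusted p = 4.92e-08), lay between 1.16 and 1.4 within the 5 scan days and was 0.69 with quantile normalization. IFN-γ arrays had 4.02, 3.90 and 4.18, all above the untreated arrays. That difference was 0.59 ± 0.19, 1.51-fold (adjusted p = 0.0197), and was 0.61 and 0.89 in the 2 scan days.

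The Ifngr2 call for IFN-γ was not stable. It was 0.25 with quantile normalization (adjusted p = 0.375), 0.39 as the mean of both probes (0.213), 1.03 with median scaling (0.00145), and adjusted p was 0.0864 without IFN-γ array G and 0.0625 without array E. It was also lost with normexp (0.0849), with only shared experiments (0.149) and without the arrays of scan day 5 (0.0896). In IL-4 arrays Ifngr2 had 3.76, 3.78, 3.80 and 3.53, which overlapped the untreated arrays. The difference was 0.28 ± 0.17 with a 95% interval of -0.07 to 0.63 (adjusted p = 0.373).

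**Figure D3:**
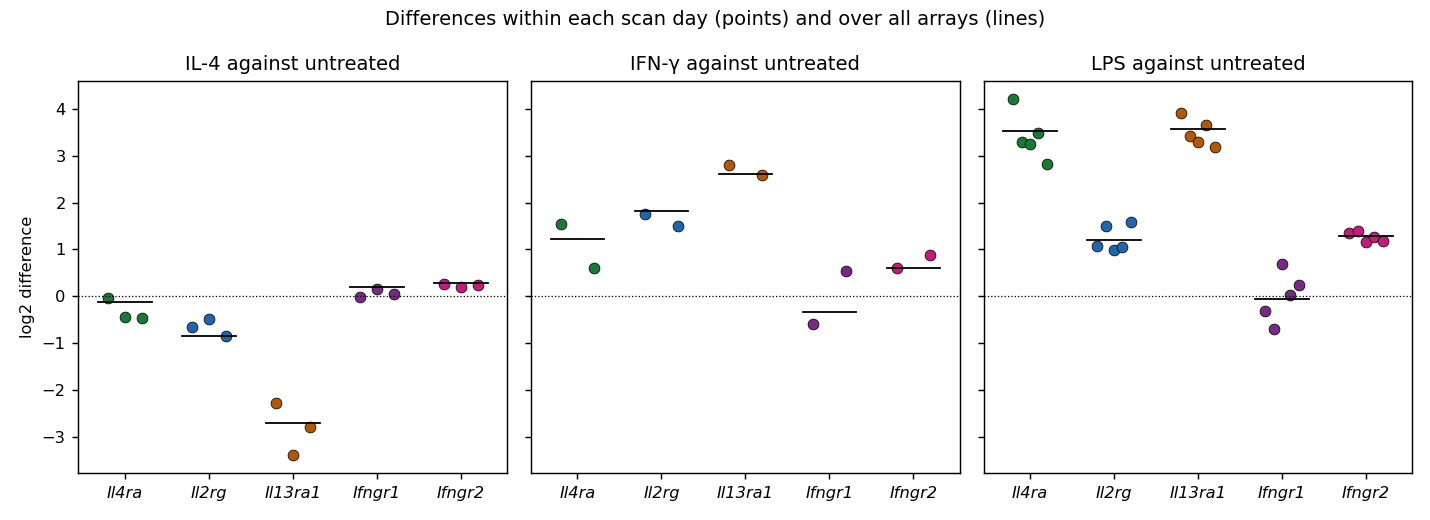
Log2 difference (y axis) of each receptor gene (x axis) from untreated cells for IL-4, IFN-γ and LPS, with 1 point for each scan day that held both groups and a line for the fit over all arrays. For LPS, the points of Il4ra, Il2rg, Il13ra1 and Ifngr2 are above 0 on all 5 scan days and those of Ifngr1 lie on both sides of it.

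Il13ra1 and Ifngr2 each had a second probe. The second Il13ra1 probe was lower by 2.16 ± 0.27 in IL-4 than in untreated arrays (log2 difference -2.16, adjusted p = 1.87e-06), and higher by 2.04 ± 0.29 with IFN-γ (adjusted p = 8.14e-06) and by 2.79 ± 0.23 with LPS (adjusted p = 1.48e-10), over 33282 probes tested. Both probes therefore gave the same directions and calls in these comparisons, with smaller differences at the second. The second Ifngr2 probe was higher by 1.14 ± 0.24 with LPS (adjusted p = 0.000295), but by 0.18 ± 0.31 with IFN-γ (adjusted p = 0.692). The IFN-γ call of Ifngr2 thus rested on its brighter probe.

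**Figure D4:**
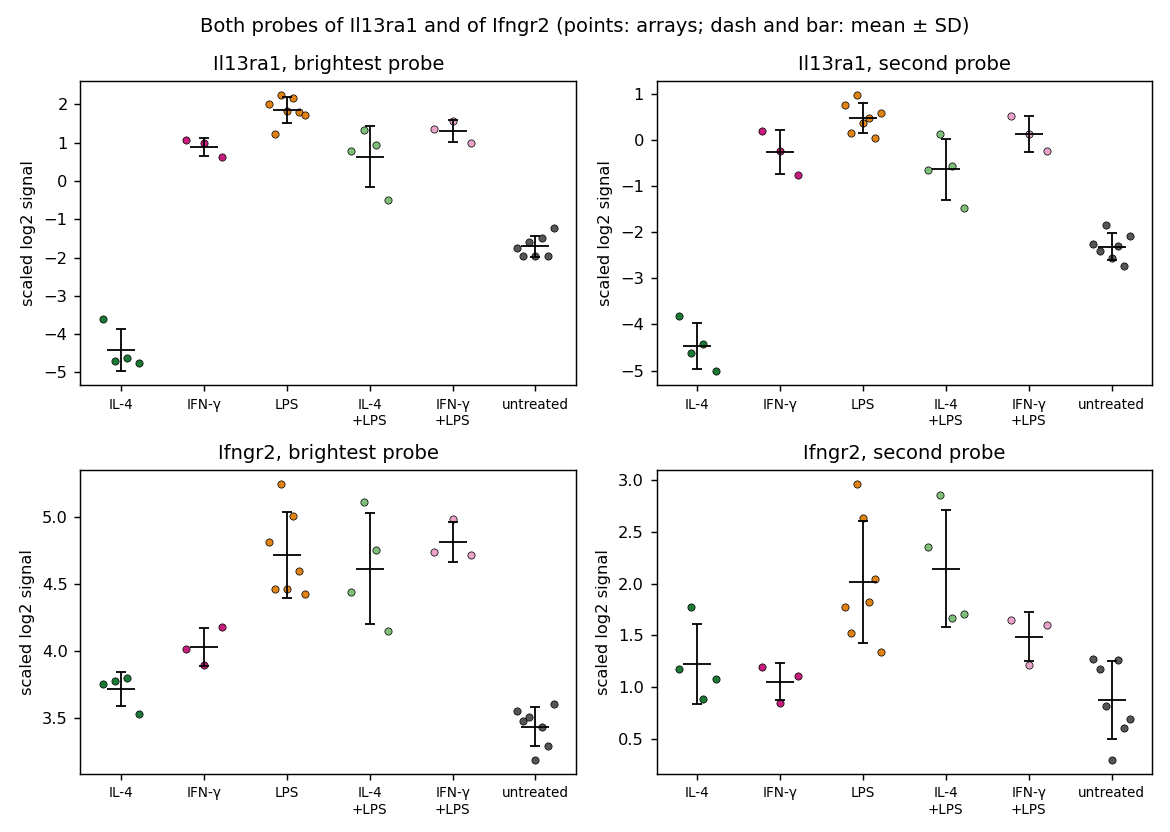
Scaled log2 signal (y axis) of both probes of Il13ra1 and Ifngr2 in the 6 groups (x axis), 1 point per array with mean and SD. The second Ifngr2 probe averaged 1.05 in IFN-γ arrays, inside the spread of the untreated arrays, while the brighter one averaged 4.03 there, above all untreated arrays.

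The order of the group means differed by gene. Il4ra averaged 6.30 ± 0.49 with LPS, 5.09 ± 0.41 with IFN-γ+LPS, 4.88 ± 0.83 with IL-4+LPS, 3.98 ± 0.37 with IFN-γ, 2.76 ± 0.43 untreated and 2.64 ± 0.43 with IL-4 (SD). Of these neighbours only LPS and IFN-γ+LPS did not overlap. Il2rg averaged 4.95 ± 0.45 with IFN-γ+LPS, 4.76 ± 0.62 with IFN-γ, 4.13 ± 0.26 with LPS, 3.94 ± 0.24 with IL-4+LPS, 2.94 ± 0.32 untreated and 2.09 ± 0.27 with IL-4, where the untreated group was apart from both its neighbours and the others overlapped. Il13ra1 averaged 1.86 ± 0.34 with LPS, 1.30 ± 0.29 with IFN-γ+LPS, 0.90 ± 0.24 with IFN-γ, 0.64 ± 0.79 with IL-4+LPS, -1.71 ± 0.28 untreated and -4.42 ± 0.55 with IL-4, again with the untreated group apart from both neighbours. Ifngr2 averaged 4.81 ± 0.15 with IFN-γ+LPS, 4.72 ± 0.32 with LPS, 4.61 ± 0.41 with IL-4+LPS, 4.03 ± 0.14 with IFN-γ, 3.72 ± 0.13 with IL-4 and 3.44 ± 0.15 untreated, and only IFN-γ and IL-4 did not overlap. The Ifngr1 means lay between 5.78 ± 0.84 with IL-4+LPS and 6.51 ± 0.11 with IL-4, and all neighbours overlapped.

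In cells already held in IL-4, LPS raised Il13ra1, Il4ra, Il2rg and Ifngr2. In IL-4+LPS against IL-4 cells 4 of 5 members were called, all higher, against 31.3% of all genes called and 15.7% called higher. Il13ra1 had 0.77, 1.33, 0.94 and -0.49 in IL-4+LPS arrays A, B, C and G, against -3.60, -4.69, -4.63 and -4.76 in IL-4 arrays, a difference of 5.06 ± 0.31, 33.3-fold (adjusted p = 1.97e-12). Array G was the lowest of the IL-4+LPS arrays, yet still above all untreated arrays. With normexp background correction the difference was 3.04. Il4ra had 4.99, 5.45, 5.40 and 3.67 in IL-4+LPS arrays, against 2.13, 2.76, 3.16 and 2.51 in IL-4 arrays, a difference of 2.24 ± 0.36 (adjusted p = 1.74e-05). Il2rg was higher by 1.85 ± 0.25 (adjusted p = 1.54e-06) and Ifngr2 by 0.90 ± 0.19 (adjusted p = 0.000549), which was 0.42 with quantile normalization (adjusted p = 0.0947). These 4 members had groups that did not overlap, as had 30% of all genes. Within the 3 scan days these 4 members were higher throughout, by 4.27 to 5.57 for Il13ra1, 1.16 to 2.78 for Il4ra, 1.70 to 2.01 for Il2rg and 0.62 to 1.01 for Ifngr2.

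Ifngr1 had 6.29, 5.16, 4.98 and 6.69 in IL-4+LPS arrays A, B, C and G, against 6.48, 6.53, 6.66 and 6.39 in IL-4 arrays. Arrays B and C were more than 1 unit below all IL-4 arrays and array G was above all of them. The difference was -0.73 ± 0.32 (adjusted p = 0.0871). It was called with the scan day as a block (adjusted p = 0.0359), with the slide as a block (0.0282), with quantile normalization (-1.26, adjusted p = 0.000887), without the arrays of scan day 5 (-1.08, adjusted p = 0.00617) and without IL-4+LPS array G (-1.03, adjusted p = 0.0112) or array A (-0.90, adjusted p = 0.0483), and within scan days it ran from -1.68 to 0.30.

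Compared with LPS alone, cells held in IL-4 had less Il4ra and Il13ra1 after LPS. In IL-4+LPS against LPS cells 2 of 5 members were called, both lower, against 8.91% of all genes called and 4.5% called lower. Il4ra had 4.99, 5.45, 5.40 and 3.67 in IL-4+LPS arrays, all below the LPS range of 5.76 to 6.94, and the difference was -1.42 ± 0.32, 0.373 of the LPS level (adjusted p = 0.00392). Il13ra1 had -0.49 to 1.33 in IL-4+LPS arrays, against 1.21 to 2.25 in LPS arrays, where array B overlapped the lowest LPS array (6.73% of all genes had groups with no overlap), and the difference was -1.22 ± 0.27 (adjusted p = 0.00416). Both were lower in each of the 3 scan days, by -2.11 to -1.48 for Il4ra and -1.70 to -0.99 for Il13ra1. With only the shared experiments adjusted p was 0.217 for Il4ra and 0.266 for Il13ra1, and with only the groups compared it was 0.0502 and 0.0536. Il2rg (-0.20 ± 0.22), Ifngr1 (-0.48 ± 0.28) and Ifngr2 (-0.10 ± 0.17) did not pass.

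The effect of LPS was also tested against the presence of IL-4 as an interaction, the LPS difference in IL-4-primed cells minus that in unprimed cells. Il13ra1 had an interaction of 1.49 ± 0.39 (adjusted p = 0.0476), with an LPS difference of 5.06 in IL-4-primed cells and 3.57 in unprimed cells. It was the 1 member of 5 called, where 1.66% of all genes were called and 0.962% called with a positive value. The interaction was between 1.09 and 2.15 within 3 scan days, and -0.0091 with normexp background correction. Its call was lost in 18 of 22 fits that left out 1 array and with the experiment letter as a replicate block (adjusted p = 0.0736), so it sat at the threshold. In the limma fit over 33282 probes the second Il13ra1 probe had 1.04 ± 0.38 (adjusted p = 0.273). The brightest probe had an adjusted p of 0.0504 there. Il4ra had -1.30 ± 0.45 (adjusted p = 0.222), which was called with the scan day (adjusted p = 0.0266) or slide (0.0161) as a block and with median scaling (0.0362).

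In cells held in IFN-γ, LPS moved Il13ra1 and Il4ra less than in unprimed cells, by the interaction test given after this comparison. In IFN-γ+LPS against IFN-γ cells 1 of 5 members was called, higher, against 11.8% of all genes called and 5.95% called higher. This was Ifngr2, with 4.74, 4.98 and 4.72 in IFN-γ+LPS arrays E, F and G, against 4.02, 3.90 and 4.18 in IFN-γ arrays, a difference of 0.78 ± 0.22 (adjusted p = 0.0192). The groups did not overlap for Ifngr2 and Il4ra, as for 25.4% of all genes. The call was lost without IFN-γ array F (adjusted p = 0.0748), without IFN-γ+LPS array F (0.092) and under 6 other settings, and the difference was 0.35 with normexp and 0.50 with quantile normalization. Il4ra had 5.11, 5.49 and 4.68 in IFN-γ+LPS arrays, against 4.07, 4.29 and 3.57 in IFN-γ arrays, a difference of 1.11 ± 0.41 (adjusted p = 0.084) that was called with the scan day as a block (adjusted p = 0.0104) and with the slide as a block (0.00951). Il13ra1 (0.40 ± 0.36), Il2rg (0.19 ± 0.29) and Ifngr1 (0.30 ± 0.37) did not pass.

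The interaction of IFN-γ and LPS, the LPS difference in IFN-γ-primed cells minus that in unprimed cells, was called for 2 of 5 members, both negative, against 8.29% of all genes called and 5.33% called lower. It was -3.17 ± 0.43 for Il13ra1 (adjusted p = 2.33e-05), with an LPS difference of 0.40 in primed and 3.57 in unprimed cells. It was -2.43 ± 0.49 for Il4ra (adjusted p = 0.00193), with an LPS difference of 1.11 in primed and 3.54 in unprimed cells. Within the 2 scan days it was -3.22 and -2.82 for Il13ra1 and -2.37 and -1.71 for Il4ra. With only the shared experiments adjusted p was 0.0706 for Il4ra. Il2rg had -1.0 ± 0.34 (adjusted p = 0.0754), which was called with the scan day (adjusted p = 0.0128) or slide (0.0275) as a block, without the arrays of scan day 5 (0.0228), without IFN-γ array G (0.00954) and without untreated array C (0.0401).

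The end levels differed from those of LPS alone for the chains of the type I receptor. In IFN-γ+LPS against LPS cells 2 of 5 members were called, 1 higher and 1 lower, against 22.7% of all genes called, 10.8% higher and 11.9% lower, and 18.3% had groups that did not overlap. Il4ra had 5.11, 5.49 and 4.68 in IFN-γ+LPS arrays, all below the LPS range of 5.76 to 6.94, and the difference was -1.21 ± 0.35, 0.432 of the LPS level (adjusted p = 0.0125). Il2rg had 5.34, 4.46 and 5.05, against 3.82 to 4.50 with LPS, so array F overlapped the LPS arrays, and the difference was 0.82 ± 0.24, 1.77-fold (adjusted p = 0.015). Within the 2 scan days these were -1.10 and -0.82 for Il4ra and 0.48 and 0.93 for Il2rg. Without IFN-γ+LPS array G the adjusted p was 0.0793 for Il4ra and 0.0549 for Il2rg, and without array E it was 0.147 for Il2rg. The Il2rg call was also lost with normexp (0.398), quantile normalization (0.0648) and only shared experiments (0.19), and the Il4ra call with only shared experiments (0.117).

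Directly compared, IL-4 and IFN-γ cells differed in the 3 IL-4 receptor genes. In IL-4 against IFN-γ cells 3 of 5 members were called, all lower, against 27.7% of all genes called and 13.2% called lower. Beside Il13ra1, Il2rg differed by -2.67 ± 0.27 (adjusted p = 2.4e-08) and Il4ra by -1.34 ± 0.39 (adjusted p = 0.0102), and 4 of 5 members, Ifngr2 included, had groups that did not overlap, as had 33.4% of all genes. In the 1 scan day with both groups the differences were -5.38 for Il13ra1, -2.35 for Il2rg and -1.06 for Il4ra. The Il4ra call was lost without IFN-γ array F (adjusted p = 0.0584). Ifngr1 had 0.53 ± 0.34 (adjusted p = 0.26), which was called without IFN-γ array G (0.97, adjusted p = 0.0364) and without the arrays of scan day 5 (1.01, adjusted p = 0.0207), and Ifngr2 had -0.32 ± 0.21 (adjusted p = 0.265), called with the scan day as a block (-0.54, adjusted p = 0.0422).

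With LPS added to both, 1 of 5 members was called in IL-4+LPS against IFN-γ+LPS cells, lower, against 25.6% of all genes called and 11.7% called lower. Il2rg had 3.89, 3.86, 4.28 and 3.71 in IL-4+LPS arrays, all below the 5.34, 4.46 and 5.05 of the IFN-γ+LPS arrays, where 27.2% of all genes had no overlap. The difference was -1.01 ± 0.27 (adjusted p = 0.00604) and -1.34 in the 1 scan day with both groups, and the call was lost without IFN-γ+LPS array E (adjusted p = 0.0597), with the slide as a block (0.0508), with only the groups compared (0.0691) and with normexp (0.226). Il13ra1 had -0.66 ± 0.33 (adjusted p = 0.153) and was called with median scaling (-1.02, adjusted p = 0.00665) and with the scan day as a block (-0.89, adjusted p = 0.0244). Only experiment G was shared by the IL-4 and IFN-γ arms.

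Whether the 2 partner chains of a receptor moved alike was tested within arrays, since the difference of 2 probes on an array does not depend on scaling. That difference reflects probe brightness too, so only its shift between groups is used. Il2rg minus Il13ra1, the partners that Il4ra pairs with in the type I and type II receptors, averaged 6.51 ± 0.50 in IL-4 arrays and 4.65 ± 0.41 in untreated arrays (SD, n = 4 and 7), a shift of 1.86 by a two-sided exact permutation test (adjusted p = 0.00682 over 9 tests). It averaged 2.27 ± 0.44 in LPS arrays, a shift of -2.38 from untreated arrays (exact permutation test, adjusted p = 0.00175). The partners thus changed unequally, with Il13ra1 moving more in both directions, and with IFN-γ the shift was -0.79 (exact permutation test, adjusted p = 0.0536; 0.0179 without untreated array G). The IL-4 shift was 0.26 with normexp background correction (exact permutation test, adjusted p = 0.506), and its call was also lost with only shared experiments (0.0643). The replicate block, an exact test that flips signs of same-letter differences, gave an adjusted p of 0.281. With so few shared experiments that block could not have passed.

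For the IFN-γ receptor, Ifngr1 minus Ifngr2 averaged 1.54 ± 0.63 in LPS arrays and 2.87 ± 0.18 in untreated arrays (SD, n = 7 each), a shift of -1.33 (exact permutation test, adjusted p = 0.00175). With IFN-γ the shift was -0.92 (exact permutation test, adjusted p = 0.0375), and with IL-4 it was -0.07 (exact permutation test, adjusted p = 0.461). Between the ligand-binding chains, Il4ra minus Ifngr1 shifted by 3.59 with LPS (exact permutation test, adjusted p = 0.00175), by 1.54 with IFN-γ (exact permutation test, adjusted p = 0.03) and by -0.33 with IL-4 (exact permutation test, adjusted p = 0.249). Both calls with IFN-γ rest on 3 arrays and were lost under several settings. All used the exact permutation test except the replicate block, an exact test that flips signs of same-letter differences. With so few shared experiments, neither that block nor the setting of only shared experiments could have passed for IFN-γ. Their values therefore decide nothing. For Ifngr1 minus Ifngr2 the adjusted p was 0.321 with the replicate block, 0.3 with only shared experiments, 0.0625 with the mean over probes, 0.0563 with normexp and 0.0536 without scan day 5. It was 0.107 without IFN-γ array E or F and 0.0536 without untreated array A, B, D or F. For Il4ra minus Ifngr1 the exact test gave adjusted p of 0.5 with the replicate block, 0.3 with only shared experiments, 0.06 with normexp, 0.0536 without scan day 5, 0.1 without IFN-γ array E and 0.0833 without array F. With all arrays, the smallest p the permutation tests can give is 0.000583 with LPS, 0.00303 with IL-4 and 0.00833 with IFN-γ. It is larger with fewer arrays or with the replicate block. All 3 comparisons share the untreated arrays.

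The genes most like each member were those with the highest Pearson r of scaled log2 signal over the 28 arrays, which mostly follows the 6 group means. They were Sipa1l1 (0.97), Ist1 (0.96) and Dync1i2 (0.95) for Il4ra, and Gbp4 (0.96), Gbp8 (0.96) and Phlpp1 (0.96) for Il2rg. For Il13ra1 they were Enpp4, Ms4a4b and Isg20 (0.98 each), and for Ifngr2 Marchf1 (0.96), Ms4a6d (0.96) and the array's name TC1480729 (0.95). Ifngr1, whose group means lay between 5.78 and 6.51, had lower values, with Hmgb2 at 0.80, Dglucy at 0.78 and Qars at 0.77. Among the members r was 0.90 for Il4ra with Ifngr2, 0.87 for Il2rg with Il13ra1 and 0.86 for Il4ra with Il13ra1, while Ifngr1 had -0.31 to -0.40 with the other four.

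The kinases, STATs and inhibitors next to these receptors were measured through 20 genes, 19 of them tested. With LPS 16 rose and 1 fell, with IFN-γ 12 rose and 1 fell, and with IL-4 4 rose and 3 fell, against untreated cells. Of all genes 42.7%, 25.7% and 11.3% were called, in the same order. The list medians were 1.5, 0.78 and -0.04, and those of all genes 0.09, -0.27 and 0.01. Jak2, the kinase bound to Ifngr2, rose by 4.57 ± 0.19 (SE) with LPS and 2.50 ± 0.24 with IFN-γ, and Jak1, bound to Il4ra and Ifngr1, by 1.5 and 0.78. Jak3, which binds the common gamma chain, followed the direction of Il2rg, at 0.75 with LPS, 0.85 with IFN-γ and -0.91 with IL-4, all called. Of the STATs, Stat3 rose by 2.90 with LPS and 1.54 with IFN-γ, whereas Stat6, the one activated by IL-4, fell by 0.57 with LPS. The feedback inhibitor Socs1 rose by 5.69 with LPS, 5.95 with IFN-γ and 5.07 with IL-4, Cish, another inhibitor of the family, by 4.14, 4.89 and 5.98, and Socs3 by 8.61 with LPS and 4.93 with IFN-γ, with -0.40 for IL-4, which did not pass. Under the interaction of IFN-γ and LPS 8 of 19 were negative and 1 positive, where 8.29% of all genes were called. The list median was -0.69, against 0.06 over all genes.

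**Figure D5:**
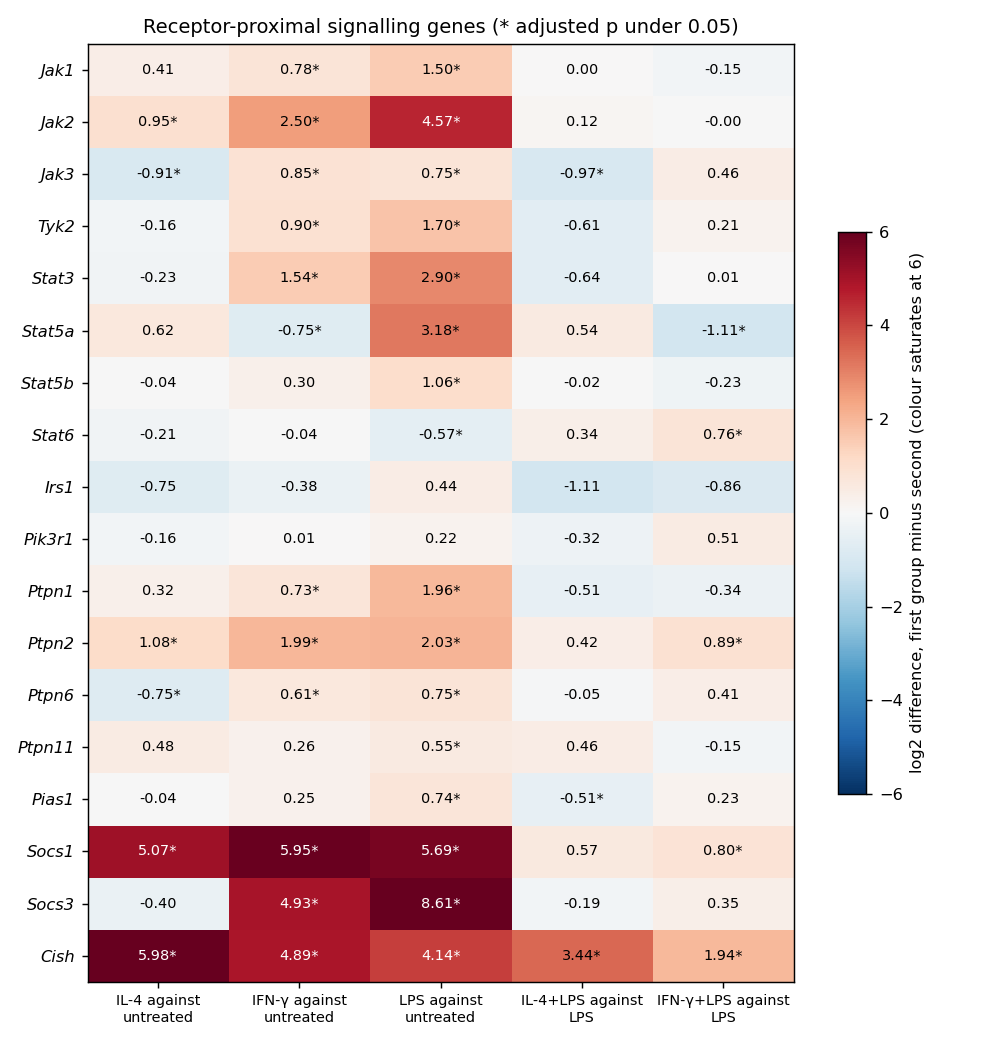
Log2 differences of 18 genes of receptor-proximal signalling (rows) in 5 comparisons (columns), first group minus second, with colour for the size and an asterisk for an adjusted p under 0.05. Socs1, Cish and Jak2 were called higher with IL-4, IFN-γ and LPS, and 3 genes were called in IL-4+LPS against LPS and 5 in IFN-γ+LPS against LPS.

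Other receptor chains gave a mixed picture. Of 13 other chains of the gamma-c and type 2 cytokine receptors, 11 were tested, and 7 rose and 2 fell with LPS, 6 rose with IFN-γ and 2 rose with IL-4, against untreated cells. Of all genes 42.7%, 25.7% and 11.3% were called, in the same order. The list medians were 0.51, 1.08 and 0.15, against 0.09, -0.27 and 0.01 over all genes. The alpha chain of the IL-15 receptor, Il15ra, which signals with the common gamma chain, rose by 4.30 with LPS and 3.60 with IFN-γ, and Il2ra by 4.12 with LPS. Il7r rose by 1.1 with IFN-γ and fell by 1.27 with LPS. Il13ra2, the decoy receptor of IL-13, was above background on 0 of 28 arrays. Of 20 other class II and gp130-type receptor genes 18 were tested, and 8 rose and 2 fell with LPS, 6 rose and 2 fell with IFN-γ and 5 rose and 3 fell with IL-4. The medians of that list were 0.17, 0.00016 and 0.08, beside the same shares and medians over all genes. Ifnar2, a chain of the type I interferon receptor, rose by 1.29 with LPS and 0.79 with IFN-γ and fell by 0.98 with IL-4, while Il12rb1 rose by 7.12 with IFN-γ. The lists were chosen with earlier results known, so their counts describe them and no more.

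Il4, the ligand of the IL-4 receptors, was above background on all 28 arrays and averaged -3.48 in IL-4, -4.83 in IFN-γ, -4.74 in LPS and -3.70 in untreated arrays, and was lower with IFN-γ (-1.13) and LPS (-1.04) than in untreated cells. Il13 did not pass in the comparisons with untreated cells. Ifng was the 1 ligand called higher in LPS against untreated cells, where 22% of all genes were called higher. It was above background on 9 of 28 arrays, so its level is not given. Of 12 genes induced by IL-4, 11 rose and 1 fell (Tgm2) in IL-4 against untreated cells, and of 16 genes induced by IFN-γ, all 16 rose in IFN-γ against untreated cells. Over all genes 11.3% were called with IL-4 and 25.7% with IFN-γ.

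Markers of other cell types moved with some results. The summed level of 7 T cell markers was 0.73 to 2.47 in LPS arrays, against -1.62 to -0.61 in untreated arrays, and 0.04 to 2.00 in IL-4+LPS arrays, against -1.60 to -0.44 in IL-4 arrays. Of these Lck, a kinase, averaged 0.90 with LPS and -4.22 untreated, whereas Cd3e averaged -1.86 and -2.67 and Cd3d was above background on 5 of 28 arrays. The summed level of 5 dendritic cell markers was 4.70 to 5.68 in IL-4 arrays, against 1.32 to 2.39 in untreated arrays, led by Itgax at 5.27 against 1.84. The other dendritic cell markers differed far less or were lower with IL-4. Flt3 averaged -3.97 against -3.98, Zbtb46 -3.10 against -3.30, Xcr1 -1.93 against -2.26 and Siglech -7.62 against -6.92. The summed macrophage markers were 9.90 to 10.3 in LPS arrays, against 9.15 to 9.57 in untreated arrays. In IFN-γ against untreated arrays several sums did not overlap. There the 5 B cell markers had 0.47 to 0.85, against 1.18 to 2.14, the 5 erythroid and megakaryocyte markers 4.15 to 4.40, against 5.49 to 6.24, and the 6 stromal and endothelial markers -1.37 to -1.32, against -1.28 to -0.47. The sums add intensities before the log, so the brightest genes lead them. Cd79b averaged 0.34 with IFN-γ and 1.54 untreated, and Pf4 4.24 and 5.86. By contrast Ms4a1 averaged -2.84 and -2.96, and Hba-a1 -2.58 and -2.52. Of the stromal and endothelial genes, Col1a2 averaged -2.44 and -1.90, but Pecam1 -3.95 and -5.68. The dendritic cell sum was 2.40 to 3.14 in IFN-γ arrays, just above the untreated range, and the macrophage sum 9.58 to 10.1. The 4 NK cell markers, none of them above background on all arrays, had -5.68 to -5.34 in IFN-γ arrays, against -4.80 to -1.89 in untreated arrays. In IL-4+LPS arrays the dendritic cell sum was 5.22 to 6.17, against 0.99 to 3.73 in LPS arrays, and the B cell sum 1.76 to 2.94, against 0.32 to 1.39 in LPS and 0.44 to 1.47 in IL-4 arrays. Itgax averaged 5.73 with IL-4+LPS against 0.57 with LPS, Flt3 -3.67 against -4.11 and Xcr1 -1.75 against -1.83. Zbtb46 (0.50 against 1.55) and Siglech (-7.22 against -6.78) went the other way. In IFN-γ+LPS arrays the T cell sum was -0.71 to -0.24, the B cell sum -0.31 to -0.01 and the erythroid and megakaryocyte sum 3.78 to 4.61, all below the LPS arrays (the last at 5.72 to 6.86), and the macrophage sum was 10.4 to 10.5, above them. The part of these cells in the receptor differences was not tested, and in such bulk RNA fewer cells of a type and less RNA per cell cannot be told apart. Dim sums also lie near the floor of signals with no local background subtracted. The all-gene median for IFN-γ against untreated arrays was -0.27, or 0.16 with median scaling. The share of floor and scaling in these sums was not tested.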

How the data were processed

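The deposited scanner files hold 1-colour (Cy3) Agilent intensity values made with Agilent Feature Extraction 9.5.1, per the submitters' processing notes. Per the file headers, the authors' processed intensity had no local background subtracted, with spatial and multiplicative detrending on and surrogate values for dim spots. The deposited value table holds log2 values centred on untreated samples. Only 2 of its 28 columns matched the scanner values of their own array best and 15 an array of their own group, so it served only as an alternative for LPS against untreated cells, where the arrays stayed within their groups.

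The log2 of the processed intensity minus the array's 75th percentile was used, without spots flagged as outliers. Spots of a probe were averaged, and of several probes of a gene the brightest by mean intensity was kept. Names were updated through RefSeq accessions (22951 probes), symbols (6659) or synonyms (3109) for the 41174 probes, and 8455 kept the array's name. Genes well above background on at least 3 of 28 arrays, with 2 or more values in each group, were fitted with limma 3.58.1 in R 4.3.3 (6 group means, 1 shared spread, 11 comparisons, Benjamini-Hochberg adjustment, two-sided, threshold 0.05), which was first tested on simulated data. Partner chains were compared within arrays by exact permutation tests. With the replicate block this was an exact test that flips the signs of differences between same-lettered arrays. Alternatives were a replicate block, slide or scan day as a block, shared experiments, other normalizations, backgrounds and filters, the mean over probes, and leaving out each array. Leaving out the arrays of scan day 5 was chosen after seeing the data.

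The named genes were the members, the 3 genes with the highest correlation with each, and genes of the lists; members and lists were chosen with earlier results of these data known. Same-lettered arrays deviated together from their group means for IL-4 with IL-4+LPS (r from 0.15 to 0.73 over 4 pairs) and IFN-γ with IFN-γ+LPS (0.28 to 0.64 over 3 pairs), which pairs them as a pattern of the data, and did not in all pairs of the other group comparisons. Same-lettered arrays of these 2 pairs of groups were also scanned on the same day. Same-day pairs of any letter deviated together too, at 0.15 to 0.73 over 6 pairs and 0.13 to 0.64 over 5 pairs. Different-day pairs reached at most 0.09 and -0.26. The letters of LPS and untreated arrays did not follow scan days. Between those groups same-lettered pairs ran from -0.50 to 0.16 and the 11 same-day pairs from 0.26 to 0.65. For IFN-γ+LPS with LPS same-day pairs ran from -0.20 to 0.58. The main fit had no term for scan day, and the replicate block and shared experiments go by letter. The labels call the experiments independent, but marrow was pooled, so p-values measure the spread between these arrays, which may be partly technical. A gene of the signalling list is counted there but not reported by itself.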

Additional observations from a re-analysis of the deposited data

Results flagged for a closer look

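In the 20 groups of 4 or more arrays examined, 2 arrays lay far from the rest of their group, and chance alone flags about 1 in 20 groups. Il13ra1 in IL-4 array A was at -3.60, above the -4.76 to -4.63 of the other three arrays. Ifngr2 in IL-4 array G was at 3.53, below the 3.76 to 3.80 of the other three.

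The effects of LPS on 2 genes differed between primed and unprimed cells by the interaction test. The LPS effect on Il13ra1 was larger by 1.49 in IL-4-primed cells (adjusted p = 0.0476), the LPS effect on Il4ra differed by -2.43 in IFN-γ-primed cells (adjusted p = 0.00193), and that on Il13ra1 differed by -3.17 there (adjusted p = 2.33e-05). The call of Il13ra1 with IL-4 sat at the threshold. It held in 4 of 22 fits that left out 1 array and was -0.0091 with normexp background correction.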

How the results depend on the processing

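Of the directions of the members in the 11 comparisons, the only called one that turned was Il13ra1 in the interaction of IL-4 and LPS, at -0.0091 with normexp background correction. Values that did not pass in either setting turned sign as follows. For Ifngr1, IFN-γ against untreated was 0.11 with median scaling, IL-4 against untreated -0.13 with quantile normalization, IFN-γ+LPS against IFN-γ -0.10 with normexp and -0.073 with quantile normalization, and IFN-γ+LPS against LPS -0.20 with normexp, -0.086 with quantile normalization, -0.15 with the slide as a block and -0.10 without scan day 5. For Ifngr2, the mean over both probes gave -0.21 for IFN-γ+LPS against LPS, 0.23 for IL-4+LPS against IFN-γ+LPS and 0.013 for IL-4+LPS against LPS. With normexp IFN-γ+LPS against LPS was -0.16 and IL-4+LPS against IFN-γ+LPS was 0.054, and IL-4+LPS against LPS was 0.0087 without scan day 5. Il2rg in IFN-γ+LPS against IFN-γ was -0.21 with normexp, -0.14 with quantile normalization and -0.21 without scan day 5, and Il4ra in IL-4+LPS against IFN-γ+LPS was 0.022 with normexp. Leaving out each array in turn gave ranges across 0 of -0.15 to 0.18 for Ifngr1 in IFN-γ+LPS against LPS, -0.13 to 0.025 for Ifngr1 in LPS against untreated, -0.27 to 0.051 for Ifngr2 in IL-4+LPS against LPS, -0.16 to 0.44 for Il2rg in IFN-γ+LPS against IFN-γ, -0.30 to 0.046 for Il4ra in IL-4 against untreated and -0.42 to 0.19 for Il4ra in IL-4+LPS against IFN-γ+LPS.

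The number of members called changed with the setting. For IL-4 against untreated (2) it was 1 with median scaling, normexp or shared experiments and 1 to 2 without 1 array. For IFN-γ against untreated (4) it was 2 with normexp or shared experiments and 2 to 4 without 1 array. For IFN-γ+LPS against IFN-γ (1) it was 0 with the mean over probes, median scaling, normexp, shared experiments, only the groups compared or quantile normalization, 2 with the scan day or slide as a block and 0 to 1 without 1 array. For IFN-γ+LPS against LPS (2) it was 1 with normexp or quantile normalization, 0 with shared experiments and 0 to 2 without 1 array. For IL-4+LPS against LPS (2) it was 0 with shared experiments or only the groups compared. For IL-4 by LPS (1) it was 0 with the replicate block, the mean over probes, no filter, normexp, shared experiments or only the groups compared, 2 with median scaling or the scan day or slide as a block, and 0 to 1 without 1 array. For IFN-γ by LPS (2) it was 1 with shared experiments. For IL-4+LPS against IFN-γ+LPS (1) it was 2 with median scaling or the scan day as a block, 0 with normexp, only the groups compared or the slide as a block, and 0 to 1 without 1 array.

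Within arrays exact permutation tests were used, and exact sign flips of same-letter differences with the replicate block. The replicate block for IL-4 and IFN-γ, and shared experiments for IFN-γ, could not pass with so few experiments. Il2rg minus Il13ra1 for IL-4 was 1.87 with the replicate block (adjusted p = 0.281) or shared experiments (0.0643) and 0.26 with normexp, and for IFN-γ -1.10 with quantile normalization (0.0125) and -0.92 to -0.57 without 1 array. Ifngr1 minus Ifngr2 for IFN-γ missed the threshold at -0.90 with the replicate block (0.321) or shared experiments (0.3), -0.71 with the mean over probes (0.0625), -0.92 with normexp (0.0563) and -1.26 without scan day 5 (0.0536), and was -1.29 to -0.72 without 1 array, lost calls included; for IL-4 it was -0.25 with quantile normalization (0.0273). Il4ra minus Ifngr1 for IFN-γ was 1.26 with the replicate block (0.5) or shared experiments (0.3), 1.49 with normexp (0.06), 2.22 without scan day 5 (0.0536) and 1.15 to 2.19 without 1 array, lost calls included. The letter block changed no other call of a member.

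Counts over all genes moved by more than 1.5 times as follows. With normexp they were 707 for IL-4 against untreated (2540), 2618 for IFN-γ against untreated (5779), 5519 for LPS against untreated (9592), 3490 for IL-4+LPS against IL-4 (7031), 821 for IFN-γ+LPS against IFN-γ (2646), 510 for IL-4+LPS against LPS (2000), 1985 for IFN-γ+LPS against LPS (5103), 38 for IL-4 by LPS (373), 705 for IFN-γ by LPS (1862), 2972 for IL-4 against IFN-γ (6213) and 2433 for IL-4+LPS against IFN-γ+LPS (5749). Median scaling gave 1524, 1372, 1079, 182 and 1040 for IL-4 against untreated, IFN-γ+LPS against IFN-γ, IL-4+LPS against LPS and the interactions with IL-4 and IFN-γ, and shared experiments gave 1492, 763, 458, 109 and 639 for the same, 2815 for IFN-γ against untreated and 1653 for IFN-γ+LPS against LPS. With only the groups compared the count was 763 for IFN-γ+LPS against IFN-γ, 1175 for IL-4+LPS against LPS and 2510 for IL-4+LPS against IFN-γ+LPS. The scan day as a block gave 3952, 5212, 3205, 909 and 3689 for the comparisons listed for median scaling, and the slide as a block 11881 for IL-4+LPS against IL-4, 7084 for IFN-γ+LPS against IFN-γ, 3853 for IL-4+LPS against LPS, 1059 for IL-4 by LPS and 4172 for IFN-γ by LPS. Leaving out 1 array gave 1681 for IFN-γ+LPS against IFN-γ and 3202 for IFN-γ+LPS against LPS at the lowest. The share of called genes that were higher was 77.9% with median scaling and 50.5% with the 75th percentile for IFN-γ against untreated, 72.1% and 47.6% for IFN-γ+LPS against LPS, 38.6% and 49.5% for IL-4+LPS against LPS, 24.8% and 35.8% for IFN-γ by LPS, 28% and 52.3% for IL-4 against IFN-γ, and 26.8% and 54.3% for IL-4+LPS against IFN-γ+LPS. With normexp it was 63.4% for IFN-γ against untreated and 17.6% for IFN-γ by LPS, and with quantile normalization 40% for IL-4+LPS against IL-4, against 50.2% with the 75th percentile.

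The deposited value table changed no call for LPS against untreated and was not run elsewhere, and shared experiments could not be run for IL-4 against IFN-γ with or without LPS, where the arms share 1 experiment. The cause of these changes was not tested, apart from fewer arrays in the fits that drop some. No paired analysis beyond the replicate block was made.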
